A study of Mus musculus with 16 samples.

Results

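The 10 genes described here are Axin2, Nkd1, Notum, Sfrp5, Sp5, Tcf7, Lef1, Tcf7l2, Prox1 and Cd44, chosen by name among the 24421 genes listed in the matrices. Their UMIs, counts of captured mRNA molecules, were followed through crypt-like and villus-like cells of small intestine from WT and ROBO mice. All 10 are listed. In WT cells 10 of them had at least 1 UMI, and in ROBO cells 9 did.

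Canonical Wnt signals stabilise beta-catenin, which binds TCF/LEF factors at target genes and keeps crypt cells in a dividing, undifferentiated state. R-spondins bind LGR receptors and remove the ubiquitin ligases RNF43 and ZNRF3, which otherwise clear Wnt receptors from the cell surface. Many direct targets of the pathway are inhibitors of it. AXIN2 is a scaffold of the complex that degrades beta-catenin, NKD1 binds Dishevelled, NOTUM removes the lipid that Wnt proteins need for activity, and SFRP5 is a secreted protein related to the Wnt-binding part of Frizzled receptors. SP5 is a zinc finger factor induced by Wnt. TCF7, LEF1 and TCF7L2 are DNA-binding partners of beta-catenin. CD44 is a hyaluronan receptor of crypt cells, and PROX1 is a homeobox factor known from intestinal adenomas and enteroendocrine cells.

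Both groups were outbred mice at postnatal day 16, untreated, from which crypt isolates of small intestine were dissociated. WT mice are labelled as wild type. ROBO-Crainbow mice expressed, after recombination that began before birth, human RSPO3 or either of a pair of PTPRK:RSPO3 fusions, each with its own fluorescent protein. The Cre is driven by Villin and so acts in gut epithelium, and the matrices do not tell which cell expressed which oncogene. For each genotype 8 samples are deposited, and all cells of a genotype are in 1 matrix whose cell names carry no sample number. Each genotype is therefore 1 pooled sample. No test between genotypes was made, and all intervals are 95% intervals that cover counting error only, not the spread between mice or libraries. The cells are labelled as crypt cells, but by their markers 1141 of 2597 were enterocyte-like. WT has 1348 cells with a median of 1492 UMIs, and ROBO has 1249 cells with a median of 1610. The mouse gene Rspo3 had 24 UMIs in WT and 16 in ROBO, and Ptprk had 227 and 213. These rows check the labels only weakly, since the transgene is human.

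The region before the start of Sp5 is shown because Sp5 has the densest run of TCF/LEF motif cores among the members in the RefSeq promoter table (GRCm38.p6), and that of Axin2 is shown beside it as the member with the most UMIs. Capitals mark the core CTTTG or its reverse complement CAAAG. The Sp5 stretch is chr2:70474673-70474922 and the Axin2 stretch is chr11:108920099-108920348, both on the plus strand and 5′ to 3′ up to the base before the annotated start.
Sp5: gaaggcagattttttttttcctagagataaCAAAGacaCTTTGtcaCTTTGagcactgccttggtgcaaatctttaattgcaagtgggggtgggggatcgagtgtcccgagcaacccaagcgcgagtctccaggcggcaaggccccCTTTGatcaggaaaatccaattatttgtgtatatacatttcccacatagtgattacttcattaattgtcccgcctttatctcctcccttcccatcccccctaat
Axin2: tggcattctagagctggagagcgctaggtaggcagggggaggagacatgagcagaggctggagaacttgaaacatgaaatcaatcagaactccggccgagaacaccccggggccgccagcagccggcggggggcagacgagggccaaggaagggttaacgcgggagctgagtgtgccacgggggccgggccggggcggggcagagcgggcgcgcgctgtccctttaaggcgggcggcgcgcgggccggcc
The Sp5 stretch holds 4 cores, and 1 more lies in the 50 bases after the start. The longer motif CTTTGAT, searched on both strands (reverse complement ATCAAAG) and overlapping the core, occurs once in Sp5, 104 bases before the start. Over the table's 32851 windows of 300 bases, 3.73% hold CTTTGAT and 53.9% hold a core, and 0.286% hold at least as many cores as Sp5. Because Sp5 was picked for its cores, the last share is a description. The table has 15 windows for 9 members. A core is in 9 of these windows and in 5 of the members, and CTTTGAT is in the window of 1 member. The Axin2 window has 0 cores. A match in these letters is a description and does not show binding.

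Cells were clustered with the members and the wider Wnt lists left out of the variable genes, so that the classes do not rest on them. The 13 clusters gave 9 classes named from marker genes, and 2 clusters stayed unnamed. Levels below are UMIs of a gene per 10000 UMIs of the same cells, and they are compared between cells and not between genes. Stem markers summed to 26.0 UMIs per 10000 in stem cell-like cells, 16.6 in transiently amplifying-like cells and 2.85 in middle enterocyte-like cells. Proliferation markers summed to 35.3 in transiently amplifying-like, 31.1 in bottom enterocyte-like, 28.1 in immune-like and 27.3 in stem cell-like cells, so they did not set the transiently amplifying-like class apart. Transiently amplifying-like cells were shallow, with a median of 941.5 UMIs, and their Rn45s level, the ribosomal RNA transcript, was 23.9 per 10000 against 2.81 in stem cell-like cells.

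Axin2 was the member with the most UMIs, 690 in WT and 692 in ROBO, and it was found in 822 cells with at most 8 UMIs in a cell. In stem cell-like cells its level was 4.76 UMIs per 10000 (4.41 to 5.14), from 654 UMIs in 308 of 478 cells. Transiently amplifying-like cells had 4.05 (3.41 to 4.79), middle enterocyte-like cells 1.69 (1.45 to 1.96) and secretory-like cells 1.54 (1.09 to 2.11). Top enterocyte-like cells had 1.16 (0.815 to 1.60), bottom enterocyte-like cells 0.957 (0.791 to 1.15) and immune-like cells 0.22 (0.0266 to 0.794). The intervals of stem cell-like and transiently amplifying-like cells overlapped, as did those of secretory-like and both the middle and the top class. After each cell was thinned to 912 UMIs, Axin2 was detected in 32.3% of 464 stem cell-like cells (28.1 to 36.8, exact Clopper-Pearson) and in 0 of 36 immune-like cells, for which the limit of 3 counts, the value that 3 counts would give, is 8.33%. Without thinning the shares were 64.4% at a median of 2684 UMIs and 4.26% (2 of 47 cells) at a median of 1749. By genotype, WT and ROBO had 0.882 and 1.05 Axin2 UMIs per 10000 in the bottom, 1.60 and 1.77 in the middle, 0.944 and 1.32 in the top enterocyte-like class and 1.27 and 1.82 in secretory-like cells, with overlapping intervals in each.

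**Figure D1:**
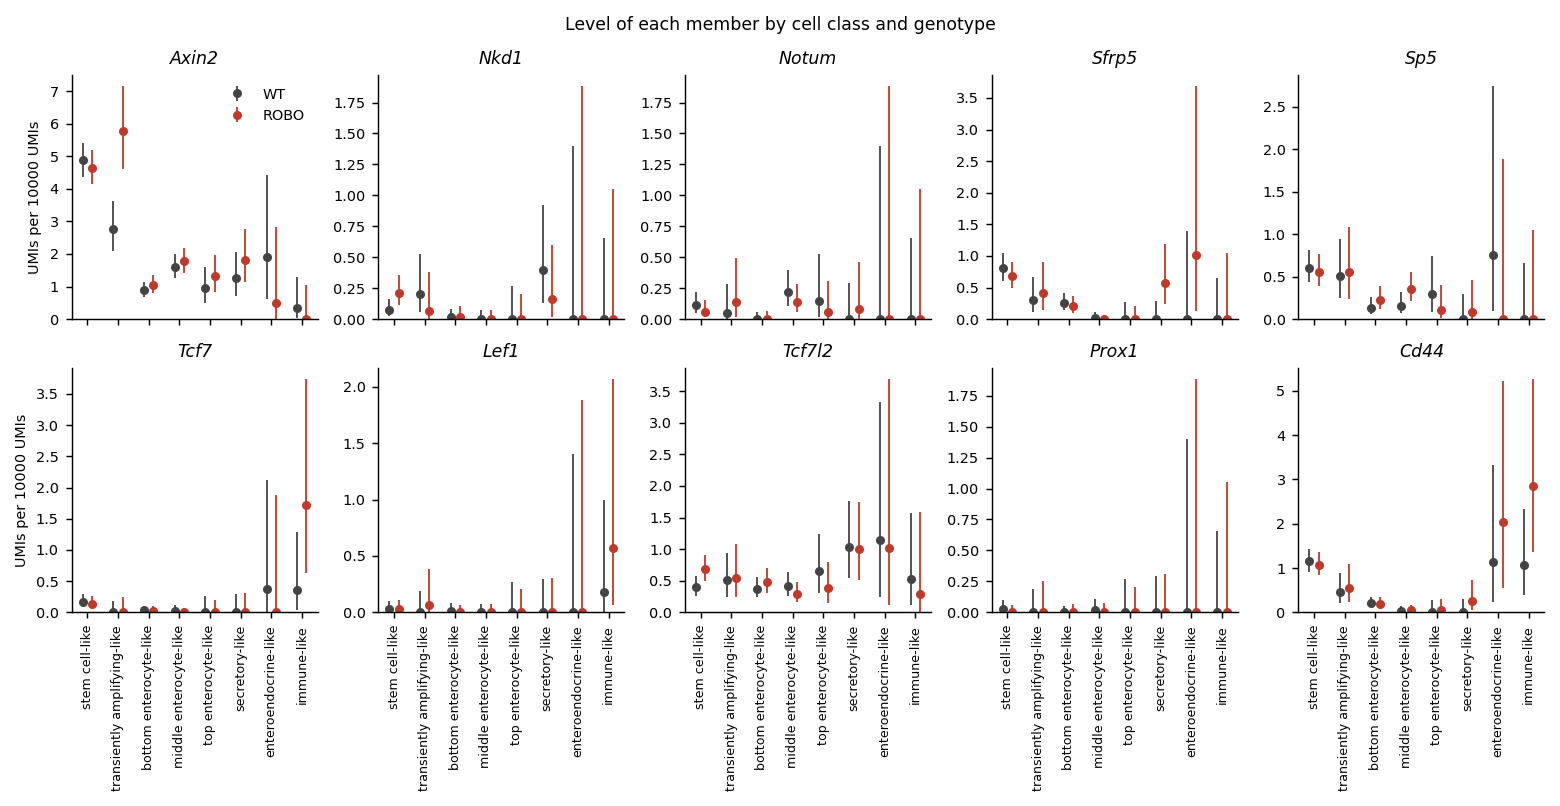
Level of each of the 10 genes, in UMIs per 10000 UMIs, in 8 cell classes (x axis) for WT (grey) and ROBO (red), with a separate y axis for each gene. Points are sums over the cells of a class and bars are exact Poisson 95% intervals; the 8 fibroblast-like cells are left out. Axin2 is highest in both crypt classes, while Tcf7l2 lies at like levels along the enterocyte classes.

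Sfrp5 was concentrated in a small fraction of the crypt. Its 164 UMIs lay in 107 cells, and the level was 0.743 UMIs per 10000 (0.606 to 0.902) in stem cell-like cells, 0.353 (0.182 to 0.616) in transiently amplifying-like cells and 0.231 (0.154 to 0.334) in bottom enterocyte-like cells. The middle class had 1 Sfrp5 UMI in 501 cells and the top class 0 in 230. Of the 2 stem cell-like clusters, one had Sfrp5 itself as its leading gene, followed by Slc14a1 and Esrrg, although Sfrp5 was not used to cluster the cells. Its values there are therefore a description. This cluster held 82 Sfrp5 UMIs in 48 of its 145 cells and the cluster led by Cym and Igfbp4, which also has Cd44 among its leading genes, held 20 in 11 of 333. The levels were 1.58 (1.25 to 1.96) and 0.235 (0.143 to 0.362), a log2 ratio of 2.75 (2.03 to 3.53), with 42 against 15 UMIs in WT and 40 against 5 in ROBO. Among all genes 16.0% were at least 1.5-fold higher in the Slc14a1-led cluster, and Sfrp5 was the only one of the 6 members with enough UMIs that was. The Slc14a1-led cells were deeper, with a median of 3556 UMIs against 2434. The cluster was named from 8 raised stem markers, whose list summed to 28.8 per 10000 against 24.3 in the Cym-led cluster. Its proliferation markers summed to 49.7 against 13.7, more than in the transiently amplifying-like class, and Melk, Pola1, Clspn and Aurkb, genes of DNA replication and cell division, were among its leading genes. The part of depth and division in the Sfrp5 difference was not tested. Between the same clusters Axin2 was at a log2 ratio of -0.06 (-0.30 to 0.17) and Sp5 at 0.05 (-0.64 to 0.73). Cd44 was at 0.47 (-0.01 to 0.94) and Tcf7l2 at -0.59 (-1.40 to 0.16). The size of the Sfrp5 ratio depended on the clustering, from 0.97 to 4.26 over 5 alternatives.

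Nkd1 and Notum were sparse. Nkd1 had 44 UMIs in 37 cells, of which 19 were in stem cell-like cells and 5 in transiently amplifying-like cells. The 3 enterocyte-like classes together held 2, both in the bottom class. Secretory-like cells had 7 Nkd1 UMIs in 5 cells, a level of 0.284 (0.114 to 0.584) against 0.138 (0.0833 to 0.216) in stem cell-like cells, and these intervals overlap. Notum was spread otherwise. Its 46 UMIs lay in 40 cells, with 12 UMIs in stem cell-like, 18 in middle and 0 in bottom enterocyte-like cells, where the limit of 3 counts is 0.0248 UMIs per 10000 and the upper bound of the exact Poisson interval 0.0304. The Notum level was 0.0874 (0.0452 to 0.153) in stem cell-like cells and 0.179 (0.106 to 0.283) in middle enterocyte-like cells.

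Sp5 had 181 UMIs in 152 cells. Its level was 0.583 UMIs per 10000 (0.462 to 0.725) in stem cell-like and 0.529 (0.313 to 0.836) in transiently amplifying-like cells. It was 0.258 (0.169 to 0.379) in the middle, 0.188 (0.0689 to 0.409) in the top and 0.173 (0.107 to 0.265) in the bottom enterocyte-like class. Secretory-like cells had 1 Sp5 UMI in 126 cells, a level of 0.0405 (0.00103 to 0.226), below the interval of both crypt classes.

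Of the TCF/LEF genes, Tcf7l2 had UMIs in every class and Tcf7 and Lef1 were near the limit of detection. Tcf7l2 had 252 UMIs in 211 cells, at 0.532 UMIs per 10000 (0.417 to 0.669) in stem cell-like cells. Its levels in transiently amplifying-like cells and the 3 enterocyte-like classes lay between 0.358 and 0.529. Secretory-like cells were at 1.01 (0.655 to 1.495) and the 30 enteroendocrine-like cells at 1.09 (0.354 to 2.54). Tcf7 had 35 UMIs in 26 cells. Stem cell-like cells held 21 of them, a level of 0.153 (0.0947 to 0.234), transiently amplifying-like cells 0, and immune-like cells 8 in 3 cells, a level of 0.879 (0.379 to 1.73). Lef1 had 10 UMIs in 10 cells, 4 of them stem cell-like and 3 immune-like. Tcf7 and Lef1 are also known from T cells, and the 16 immune markers in the matrices summed to 472.3 per 10000 in the immune-like cells and to at most 0.608 in any cluster of the epithelial classes. Prox1 had 3 UMIs in 2 WT cells, 1 stem cell-like and 1 middle enterocyte-like, and 0 in ROBO and in the enteroendocrine-like cells. At this depth no statement on Prox1 can be made.

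Cd44 had 252 UMIs in 189 cells. Its level was 1.11 UMIs per 10000 (0.945 to 1.31) in stem cell-like cells, 0.499 (0.291 to 0.7995) in transiently amplifying-like cells and 0.198 (0.127 to 0.295) in bottom enterocyte-like cells. It was 0.0497 (0.0161 to 0.116) in the middle and 0.0313 (0.000792 to 0.174) in the top class. Immune-like cells, which use CD44 for adhesion, were at 1.76 (1.00 to 2.85) and enteroendocrine-like cells at 1.52 (0.613 to 3.14), both with intervals that overlap that of stem cell-like cells.

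Crypt-like cells, stem cell-like and transiently amplifying-like together (792 cells), were then set against the 3 enterocyte-like classes (1141 cells). The minimum of 20 UMIs was set on both together and 8 members reached it, of which Nkd1 and Tcf7 did so only through the crypt-like cells. The count of 6 of 8 at least 1.5-fold higher in the crypt, beside 26.5% of all genes, and the median log2 ratio of 2.20, beside 0.18 for all genes, are therefore descriptions. Axin2 was 4.62 against 1.27 UMIs per 10000, a log2 ratio of 1.86 (1.67 to 2.05). Cd44 was at 3.07 (2.50 to 3.68), Sfrp5 at 2.54 (1.94 to 3.18) and Sp5 at 1.45 (0.96 to 1.96). Nkd1 was at 4.15 (2.14 to 7.28) on 24 against 2 UMIs and Tcf7 at 2.96 (1.39 to 4.96) on 21 against 4. Notum was at 0.08 (-0.98 to 1.11) on 15 against 21 UMIs, an interval that includes 1.5-fold in both directions, and over 13 alternatives at -1.22 to 0.49. Tcf7l2 was at 0.39 (-0.03 to 0.81), near 0 in WT (-0.64 to 0.62) and at 0.75 in ROBO (0.16 to 1.35), a difference that was not tested. With the dividing bottom class left out of the villus, the ratio of Axin2 was 1.57, that of Cd44 4.46, that of Sfrp5 6.46, resting on 1 villus UMI, and that of Notum -0.86. The Sfrp5 ratio was the least settled, from 1.23 without the Slc14a1-led cluster to 6.88 with 3000 variable genes, and above 0 in all 12 alternatives.

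**Figure D2:**
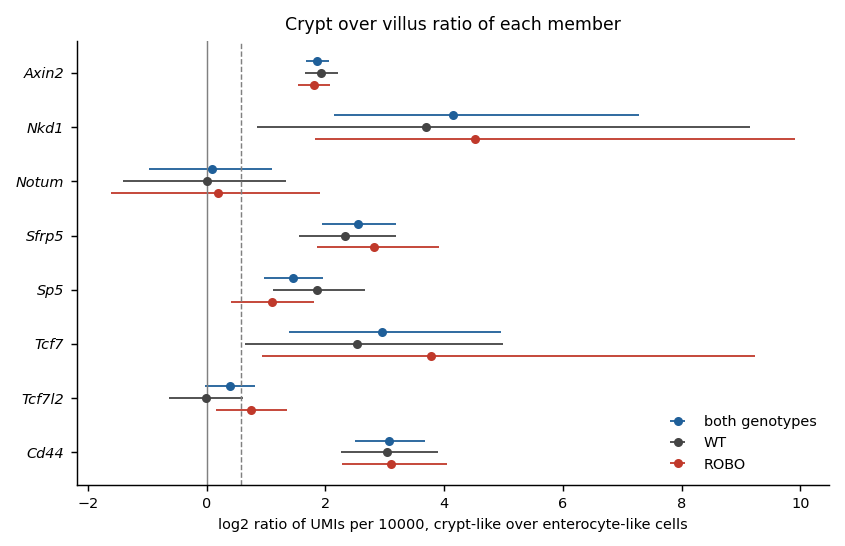
Log2 ratio (x axis) of UMIs per 10000 in crypt-like over enterocyte-like cells for the 8 genes with at least 20 UMIs, over both genotypes (blue), in WT (grey) and in ROBO (red), with conditional exact 95% intervals. The dashed line is 1.5-fold; Axin2, Nkd1, Sfrp5, Sp5, Tcf7 and Cd44 lie beyond it over both genotypes, while Notum and Tcf7l2 do not.

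The enterocytes themselves were uneven. The middle class consists of a cluster of 372 cells led by Cubn and Gm2061, with Lct, the lactase of suckling animals, among its leading genes, and a cluster of 129 cells led by Sis and Gsta1, with sucrase-isomaltase of the weaned gut. Axin2 was 2.31 UMIs per 10000 (1.97 to 2.70) in the Cubn-led cluster, from 162 UMIs in 112 cells, and 0.261 (0.113 to 0.515) in the Sis-led cluster, from 8 UMIs in 8 cells. WT had 79 against 1 UMIs and ROBO 83 against 7. The log2 ratio was 3.15 (2.13 to 4.38) over both genotypes, and over 10 alternative clusterings, cell sets and scalings it lay between 2.95 and 3.33. The members with at least 20 UMIs were Axin2, Tcf7l2 (32 against 4 UMIs, log2 ratio 1.81, 0.31 to 3.77) and Sp5 (23 against 3, 1.74, 0.02 to 4.12). They reached the minimum through the Cubn-led cluster, so that all 3 were higher there, beside 25.4% of all genes, is a description. Notum had 18 UMIs in 12 Cubn-led cells and 0 in the Sis-led cells, where the limit of 3 counts is 0.0980 per 10000. Sfrp5 had 1 UMI, Cd44 had 4 and Nkd1 had 0 in the Cubn-led cluster. Axin2 was also higher there than in the bottom class (log2 ratio 1.27, 0.92 to 1.63) and than in the top class (1.00, 0.48 to 1.56).

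Markers of crypt cells in the Cubn-led cluster were low. Its stem markers summed to 3.01 UMIs per 10000 and those of the Sis-led cluster to 2.48, and its proliferation markers to 6.92 against 6.96. Lgr5 had 3 UMIs and Olfm4 had 0 in its 372 cells. The number of Axin2 UMIs per Lgr5 UMI was 54.0 (18.1 to 264.6) there, 4.13 (3.31 to 5.19) in the Cym-led and 2.54 (1.99 to 3.25) in the Slc14a1-led stem cell-like cluster. Among the other enterocytes it was 37.0 (6.24 to 1500) in the top class, on 1 Lgr5 UMI, 7.73 (4.50 to 14.3) in the bottom class and 1.14 (0.362 to 3.70) in the Sis-led cluster, so a high ratio was not particular to the Cubn-led cells. The median depth was 1450 UMIs against 1925 in the Sis-led cluster. Thinned to 912 UMIs, 18.8% of 288 Cubn-led cells (14.4 to 23.8) and 2.65% of 113 Sis-led cells (0.551 to 7.56) had an Axin2 UMI, and 30.1% and 6.2% had one without thinning. Among the thinned Cubn-led cells, the 54 with an Axin2 UMI had 50.4 Lct UMIs per 10000 (44.3 to 57.0) and the 234 without had 43.5 (40.8 to 46.4). The level of Cubn was 8.73 and 8.39. Alpi, a further enterocyte marker, was lower with Axin2, at 14.8 (11.6 to 18.6) and 18.1 (16.3 to 19.98). The proliferation marker Top2a was at 0.812 (0.221 to 2.08) on 4 UMIs and 0.515 (0.257 to 0.922) on 11. Igfbp4, a stem marker, was at 1.42 (0.572 to 2.93) on 7 UMIs and 0.375 (0.162 to 0.739) on 8. The stem marker Slc12a2 went the other way, at 1.02 (0.330 to 2.37) on 5 UMIs and 1.31 (0.872 to 1.90) on 28. Lgr5 had 0 UMIs in the cells with Axin2 and 1 in those without, and Olfm4 had 0 in both. Of the 6 doublets called, 2 were in the Cubn-led cluster and both had Axin2.

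**Figure D3:**
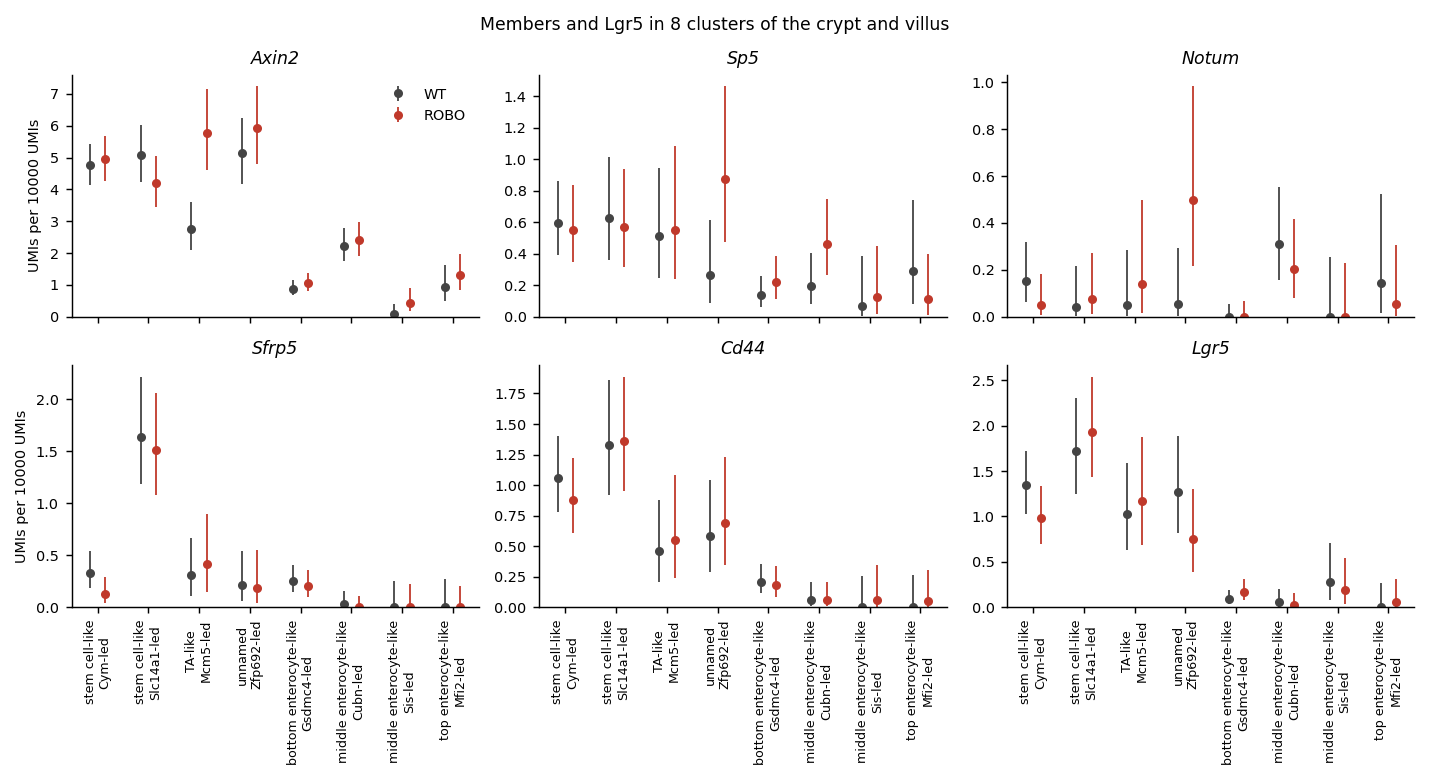
Levels in UMIs per 10000 of Axin2, Sp5, Notum, Sfrp5, Cd44 and the stem marker Lgr5 in 8 clusters of crypt and villus cells (x axis, named by class and leading gene) for WT (grey) and ROBO (red), with exact Poisson 95% intervals. Each gene has its own y axis. Axin2 has points well above 0 in the Cubn-led enterocytes, where Lgr5, Sfrp5 and Cd44 are near 0. The Notum points there rest on 18 UMIs in 12 cells over both genotypes.

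An unnamed cluster of 365 cells led by Zfp692 and Ppan and with Rnf43 among its leading genes had an Axin2 level of 5.50 UMIs per 10000 (4.75 to 6.33), against 4.84 (4.39 to 5.33) in the Cym-led stem cell-like cluster. Its stem markers summed to 21.1 and its Lgr5 level was 1.03, but no marker list named it. Its median of 819 UMIs was the lowest among the clusters and its Rn45s level was 15.9. Sp5 there was 0.544 (0.328 to 0.849) and Cd44 0.630 (0.395 to 0.954). Within it Notum had 1 UMI in WT and 8 in ROBO and Sp5 had 5 and 14, both under the minimum of 20. In the unnamed cluster of 88 cells led by Plk3 and Atf3, early response genes, the Axin2 level was 2.36 (1.54 to 3.46).

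Members also varied within the stem cell-like class. Of its 478 cells, 196 had UMIs of at least 2 members and 96 had none, while in the middle enterocyte-like class 28 of 501 had at least 2. These cells were not thinned, and the median depth was 2684 UMIs against 1626. In the bottom enterocyte-like class, at a median of 2772 UMIs, 39 of 410 cells had at least 2. At 912 UMIs per cell, Axin2 was 4.31 (3.38 to 5.43) in cells called G1 by their phase scores, 4.33 (3.38 to 5.46) in S and 7.60 (5.92 to 9.60) in G2M. The log2 ratio of G2M over G1 was 0.82 (0.32 to 1.31), and 0.61 with unthinned cells. WT cells had 3.34 (2.22 to 4.82) in G1 and 9.01 (6.59 to 12.01) in G2M, and ROBO cells had 5.30 (3.85 to 7.12) and 5.85 (3.75 to 8.70); the difference between genotypes was not tested. Sfrp5 had 2 UMIs in 183 G1 cells, 11 in 180 S cells and 11 in 101 G2M cells. Cells with an Lgr5 UMI (61) and without one (403) had Axin2 levels of 6.47 (4.53 to 8.96) and 4.82 (4.13 to 5.58). Cd44 was 3.06 (1.78 to 4.89) with and 0.980 (0.686 to 1.36) without an Lgr5 UMI. Thinned to 1500 UMIs the Cd44 levels were 1.85 (1.09 to 2.92) and 1.01 (0.757 to 1.33), and those of Axin2 4.82 and 4.72.

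The study asked how the oncogenes change the stem cell lineage, and for these genes that is the comparison of ROBO with WT within each class. In stem cell-like cells, 6 members had at least 20 UMIs over both genotypes, and 1 of them, Tcf7l2, was at least 1.5-fold apart, against 15.6% of all genes. Axin2 had 346 UMIs in 243 WT cells and 308 in 235 ROBO cells, levels of 4.87 (4.37 to 5.41) and 4.65 (4.14 to 5.20) and a log2 ratio of -0.07 (-0.29 to 0.16). This interval lies inside 1.5-fold in both directions. The sign depended on which cells were called stem cell-like: over 11 alternatives the ratio ran from -0.07 to 0.33 and was above 0 in 8, with 0.33 (0.071 to 0.58) at 30 principal components. Without the Slc14a1-led cluster it was 0.057. Sfrp5 was at -0.24 (-0.84 to 0.35), Sp5 at -0.12 (-0.79 to 0.55), Cd44 at -0.11 (-0.59 to 0.37) and Tcf7 at -0.31 (-1.74 to 1.06). The median over the 6 was -0.11, with a range of -0.18 to 0.41 over 13 alternatives, and that over all genes was 0.00. Sfrp5 came to -1.42 when the cells were clustered again without called doublets, of which 1 was in the Slc14a1-led and 0 in the Cym-led cluster. Over 8 alternatives it lay between -1.42 and -0.24, and 5 stayed within its interval. In the Cym-led cluster Sfrp5 had 15 UMIs in WT and 5 in ROBO (-1.40, -3.21 to 0.14).

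Tcf7l2 had 28 UMIs in 25 WT cells and 45 in 37 ROBO cells of the stem cell-like class, levels of 0.394 (0.262 to 0.570) and 0.679 (0.495 to 0.909). The log2 ratio was 0.78 (0.07 to 1.52) and lay between 0.54 and 1.11 over 11 alternatives. It was 1.11 (0.24 to 2.02) in the Cym-led cluster, on 18 and 34 UMIs, and 0.09 (-1.28 to 1.49) in the Slc14a1-led cluster, on 10 and 11. In the Zfp692-led cluster it had the other sign, -0.76 (-2.31 to 0.64) on 14 and 7 UMIs, and over all cells Tcf7l2 had 126 UMIs in each genotype. Nkd1 had 5 UMIs in WT and 14 in ROBO stem cell-like cells, a log2 ratio of 1.59 (0.03 to 3.41) under the minimum, and 5 and 2 in secretory-like cells. With both crypt classes joined, Tcf7l2 was at 0.64 (0.02 to 1.28) and Nkd1 at 0.90 (-0.39 to 2.28).

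In transiently amplifying-like cells Axin2 was the one member with at least 20 UMIs. It had 54 UMIs in 180 WT cells and 84 in 134 ROBO cells, levels of 2.77 (2.08 to 3.61) and 5.77 (4.61 to 7.15), whose intervals do not overlap. The log2 ratio was 1.06 (0.55 to 1.58), in a class where 26.1% of all genes were at least 1.5-fold apart. Axin2 was detected in 22.8% of WT and 44.8% of ROBO cells, and in 19.4% (11.9 to 28.9) and 37.0% (26.0 to 49.1) after thinning to 912 UMIs. The ratio did not hold when the cells were clustered otherwise. It was between 0.046 and 0.28 under 6 alternatives, which were the members kept in the clustering, 30 principal components, 3000 variable genes, no cell cycle regression, cells with at least 500 genes, and called doublets left out. It stayed at 1.00 (0.49 to 1.52) at a resolution of 1.2. In the same class the Rn45s level was 27.7 per 10000 in WT and 18.9 in ROBO, and its part in the Axin2 ratio was not tested. In stem cell-like and transiently amplifying-like cells joined, a grouping that does not depend on the border between them, the Axin2 log2 ratio was 0.13 (-0.07 to 0.34).

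**Figure D4:**
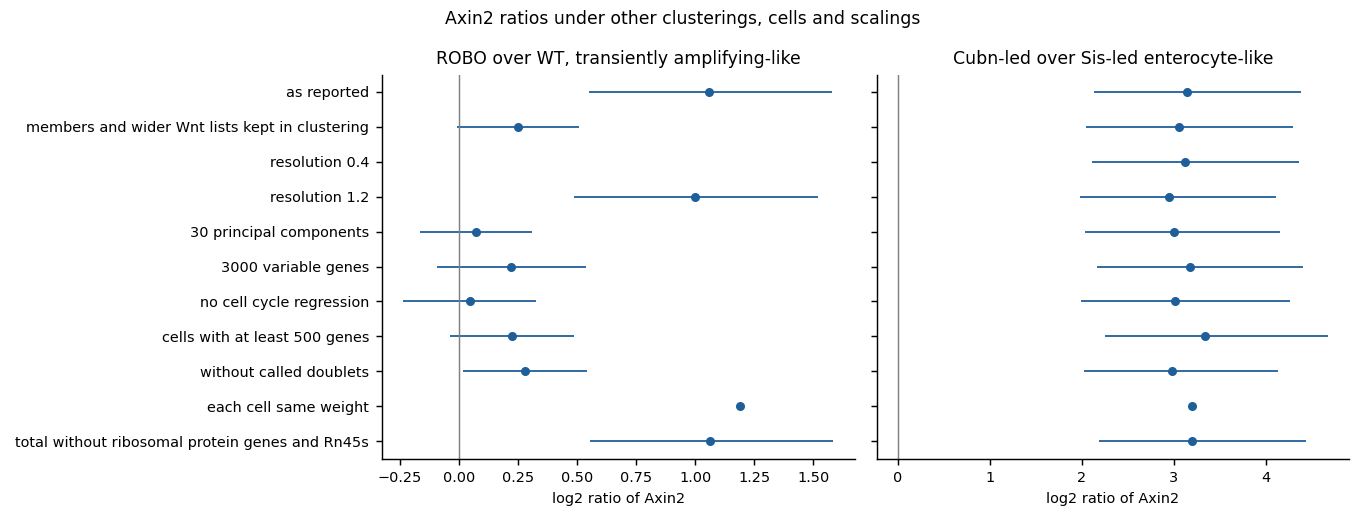
Log2 ratio (x axis) of the Axin2 level under the processing as reported and 10 alternatives (rows), between ROBO and WT transiently amplifying-like cells (left) and for Cubn-led over Sis-led enterocytes over both genotypes (right), with conditional exact 95% intervals. At resolution 0.4 no transiently amplifying-like class was named, and equal weight per cell has no interval. The left panel falls to between 0.046 and 0.28 in 6 alternatives, while the right panel stays between 2.95 and 3.33.

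In the 3 enterocyte-like classes together, 3 of 6 members with at least 20 UMIs were 1.5-fold apart between genotypes, against 14.0% of all genes, on few UMIs and with intervals that all include 0. Sp5 was at 0.69 (-0.15 to 1.56) from 21 WT and 32 ROBO UMIs, Notum at -0.62 (-2.09 to 0.76) from 13 and 8, and Sfrp5 at -0.63 (-1.86 to 0.53) from 18 and 11. Axin2 was at 0.25 (-0.07 to 0.58). Among Cubn-led cells Axin2 stood at 2.23 UMIs per 10000 (1.76 to 2.78) for WT and 2.40 (1.91 to 2.97) for ROBO, and Sp5 had 7 and 16 UMIs (log2 ratio 1.23, -0.13 to 2.75). Sp5 also had 7 UMIs in WT and 19 in ROBO over both unnamed clusters, at 1.78 (0.47 to 3.28). In neither of these clusters alone did Sp5 reach 20 UMIs, and the share of all genes apart in them is not given here. Their Rn45s level was 23.2 per 10000 in WT and 16.5 in ROBO, and its part in the Sp5 ratio was not tested. Over all cells none of 8 members was 1.5-fold apart, against 9.46% of all genes, and Axin2 was at 0.15 (-0.01 to 0.30) and Sp5 at 0.35 (-0.09 to 0.79).

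**Figure D5:**
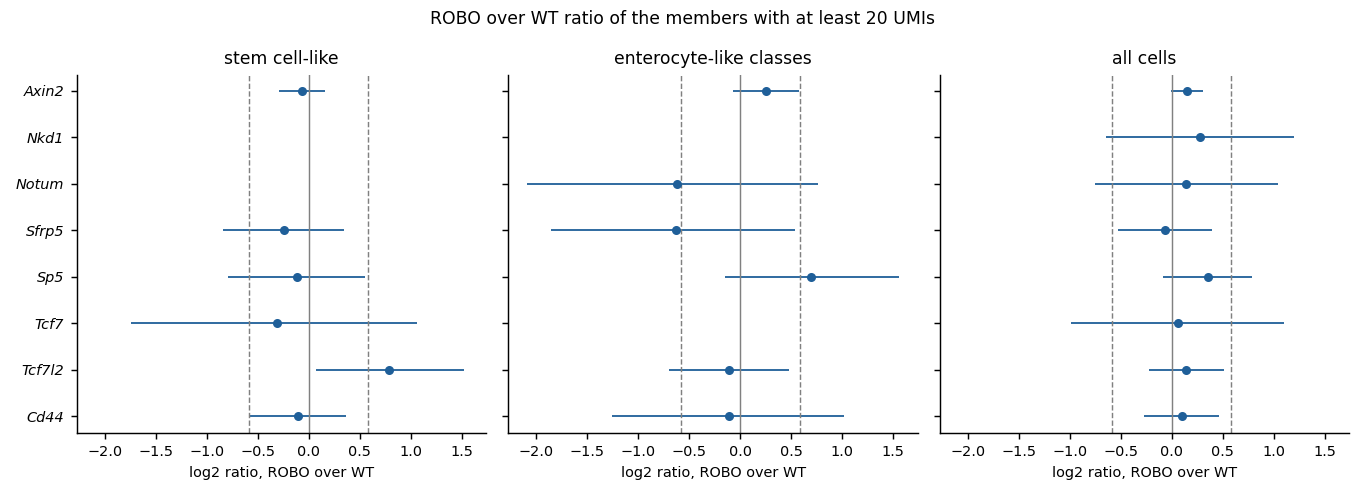
Log2 ratio (x axis) of UMIs per 10000 in ROBO over WT for the genes with at least 20 UMIs, in stem cell-like cells (left), the 3 enterocyte-like classes together (middle) and all cells (right), with conditional exact 95% intervals. Dashed lines mark 1.5-fold; in stem cell-like cells only Tcf7l2, at 0.78, lies beyond them, and in the middle panel Notum, Sfrp5 and Sp5 do with intervals across 0.

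The rest of the pathway was taken from lists of 106 ligands, receptors, inhibitors, cytoplasmic and nuclear components and targets, of which 105 are in the matrices. Of the 54 with enough UMIs, 28 were at least 1.5-fold higher in crypt-like than in enterocyte-like cells, with a median log2 ratio of 0.61, where 26.5% of all genes were higher and their median was 0.18. The minimum was set on both groups together, so genes of the list that are low in enterocytes entered it through the crypt, and the counts are a description. These were 9 of 13 targets, 7 of 10 receptors, 3 of 4 inhibitors, 4 of 12 nuclear and 3 of 12 cytoplasmic components, and 2 of 3 ligands and agonists. Rnf43 and Znrf3, the ligases that clear Wnt receptors, were at 1.69 (1.44 to 1.96) and 1.64 (0.98 to 2.33). The target Sox9, a crypt transcription factor, was at 1.22 (1.00 to 1.45), and the R-spondin receptor Lgr4 at 0.81 (0.56 to 1.06). Wls, which carries Wnt proteins to the surface, was at 1.198 (0.79 to 1.62), the ligand Wnt3 at 1.57 (0.16 to 3.12), Rspo3 at 0.15 (-0.92 to 1.19) and the target Ets2 at 0.96 (0.76 to 1.17). Among receptors, Ryk was at 0.42 (0.11 to 0.74) and Fzd5 at -0.11 (-0.37 to 0.13). Ctnnb1, which encodes beta-catenin, was at 0.07 (-0.04 to 0.17), and the kinases Csnk1a1 and Csnk1d were at 0.14 and 0.23. The corepressors Ctbp1, Ctbp2 and Aes were at 0.30, 0.59 and -0.09. Jun, also an early response gene, was at -0.61 (-0.73 to -0.49).

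Between genotypes, 8 of 46 of these genes were 1.5-fold apart in stem cell-like cells, a share to be read against the 15.6% of all genes. Higher in ROBO were Znrf3 at a log2 ratio of 1.15 (0.18 to 2.19; 14 and 29 UMIs), Axin1 at 0.78 (0.14 to 1.43; 35 and 56 UMIs), Fzd1 at 0.99 (-0.44 to 2.56), Ror2 at 0.86 (-0.09 to 1.85) and Mycn at 0.84 (-0.45 to 2.21). Lower in ROBO were the DKK receptor Kremen1 at -0.75 (-2.03 to 0.44), the kinase Csnk1e at -0.86 (-1.79 to 0.03) and the beta-catenin cofactor Bcl9l at -0.75 (-1.76 to 0.21). Of these 8 genes, Znrf3 and Axin1 had intervals that left out 0. Rnf43 had 177 UMIs in WT and 136 in ROBO, at -0.28 (-0.61 to 0.05). The median of the 46 was -0.16, and that of the 12 nuclear components -0.37, with 1 of 12 above 0. The intervals of all 12 included 0, and only Bcl9l was past 1.5-fold. The medians of the other lists and the share of all genes above 0 are not given here, so these values are a description.

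Levels were also followed over 14 points, which are the sums of the 7 classes with at least 20 cells in each genotype. The genes most like Axin2 among 7458 were Snhg20 (Pearson r = 0.96), Rnf43 (0.96) and Usp24 (0.94). Sfrp5 was most like the stem marker Gkn3 (0.91), Cnnm3 (0.91) and Rnf32 (0.91), and Sp5 most like Smad6 (0.90), Afap1l1 (0.89) and Kif1c (0.88). Cd44 was most like Ptprs (0.94), Notch1 (0.93) and Polr2a (0.92), and Tcf7l2 most like Rnase1, Asph and Gm15315 (each 0.86). Between members r was 0.79 for Axin2 and Sp5, 0.65 for Axin2 and Sfrp5 and -0.19 for Axin2 and Cd44. The 7 classes include the immune-like cells, where Cd44 levels were 1.07 in WT and 2.86 in ROBO. Axin2 levels there were 0.357 and 0. Both genes were lower in top enterocyte-like than in stem cell-like cells. Axin2 was 0.944 against 4.87 in WT and 1.32 against 4.65 in ROBO. Cd44 was 0 against 1.15 and 0.055 against 1.07. The r of Axin2 and Cd44 without the immune-like points was not computed. The points share libraries and come in pairs of the same class, so the r values describe order and are not tests.

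By GENCODE M21 on GRCm38, Axin2 lies on chromosome 11 at 108920349 to 108950783 on the plus strand, Sfrp5 on chromosome 19 at 42197971 to 42202252 on the minus strand, Sp5 on chromosome 2 at 70474923 to 70477729 on the plus strand and Tcf7l2 on chromosome 19 at 55741820 to 55933654 on the plus strand. On chromosome 11 Notum is at 120653788 to 120661175 and Tcf7 at 52252371 to 52283014, both on the minus strand, and Nkd1 is on chromosome 8 at 88521354 to 88594884 on the plus strand. Lef1 is on chromosome 3 at 131110471 to 131224356 on the plus strand, Prox1 on chromosome 1 at 190118035 to 190170714 and Cd44 on chromosome 2 at 102811141 to 102901665, both on the minus strand. A 3′ kit counts transcript ends, so isoforms of a member were summed. The antisense gene Gm11670 overlaps Axin2, Notumos and Myadml2os overlap Notum, and Gm45496 overlaps Nkd1 on the same strand. Whether the counting used strand is not given in the sources used here, so reads of such partners cannot be told apart. None of the genes that overlap a member is listed in the matrices.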

How the data were processed

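Single cells of crypt isolates were measured with a droplet 3′ kit on 2 cartridges per genotype. Reads were processed by the authors in BaseSpace. For each genotype they deposited a single table of UMI counts, unnormalized, with genes in rows and cells in columns. The labels name the builds GRCm38 and mm10; aligner, annotation and cell calling are not given in the sources used here. Cells had between 463 and 13756 UMIs.

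All cells were kept and clustered in Seurat 5.3.0 (R 4.3.3) after scaling to 10000 UMIs and regression of S and G2M scores. Clustering used 20 principal components of 2000 variable genes at a resolution of 0.8. The 116 member and wider Wnt list genes were left out of the variable genes. A cluster was named where at least 3 markers were raised 1.5-fold and detected in 10% of cells. It also needed a marker of its class among its 10 leading genes, with no other class having more markers there. The rule was set after the clusters were seen. Scrublet in scanpy 1.11.5 called 6 doublets, which were kept. UMIs were summed per class, with exact Poisson intervals and conditional exact intervals for ratios (scipy 1.17.1). The code for the ratio intervals was run on simulated Poisson counts, which the intervals assume. That run cannot show how they hold where UMIs of a gene gather in few cells. A gene is called apart at 1.5-fold with at least 20 UMIs over both groups. Thinning to 912 UMIs left out 364 WT and 285 ROBO cells.

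All 10 members are named, with wider Wnt genes past 1.5-fold in stem cell-like cells, the 3 per list with most UMIs, and the 3 genes most like each member with at least 100 UMIs. Members and lists were chosen with earlier results of these data known. Alternatives covered clustering, cells, scaling and minimum UMIs.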

Additional observations from a re-analysis of the deposited data

How the results depend on the processing

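No paired analysis was possible because the cell names carry no sample number, so replicates were neither blocked nor left out in turn, and barcodes shared between libraries were not counted. No called value changed sign. Ratios inside the fold did: between genotypes in stem cell-like cells Axin2 (-0.07 to 0.33), Sp5 (-0.19 to 0.53), Cd44 (-0.34 to 0.20), Tcf7 (-0.32 to 0.30) and the median of members (-0.18 to 0.41), over all cells Nkd1 (-0.17 to 0.28) and Tcf7l2 (-0.032 to 0.15), crypt over villus Notum (-1.22 to 0.49), and Sfrp5 in stem cell-like cells with over without an Lgr5 UMI (-0.083, and 1.98 at 1500 UMIs). The median log2 ratio of crypt over villus, 2.20, was 1.48 with 3000 variable genes, 2.85 without cell cycle regression and 1.33 without the Slc14a1-led cluster. The number of members apart between genotypes in stem cell-like cells, 1, was 2 with the members kept in clustering, at resolution 0.4, without doublets and without the Slc14a1-led cluster, and 3 at a minimum of 10 UMIs. The number of wider Wnt genes apart there, 8, was 5 at resolution 0.4, 4 with cells of at least 500 genes and 2 at a minimum of 50 UMIs. The transiently amplifying-like Axin2 ratio between genotypes, 1.06, was 0.25 with the members kept in clustering, 0.071 with 30 principal components, 0.22 with 3000 variable genes, 0.046 without cell cycle regression, 0.22 with cells of at least 500 genes and 0.28 without doublets. The Sfrp5 ratio between the stem cell-like clusters, 2.75, was 0.97 with 30 principal components and 4.26 without cell cycle regression. The share of stem cell-like cells with an Axin2 UMI, 32.3%, was 45.5% at 1500 UMIs and 64.4% unthinned. The causes were not tested. For the single genes, 24 results were recomputed 184 times, of which 152 moved by less than counting error and 32 by more. Leaving out clusters, the same Axin2 ratio and both cluster ratios were alternatives added after seeing the data. Prox1, Lef1, Tcf7, Nkd1 and Notum are limited by depth in every class.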
